A study of Mus musculus with 12 samples.

Results

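The starting point of bone differentiation was described in the day 0 libraries of MC3T3-E1 cells, an established mouse preosteoblast line derived from calvaria. The series holds 12 RNA sequencing libraries, and the 4 described here are those labelled day 0, chosen by their labels alone: replicates 1 and 2 of the control arm and replicates 1 and 2 of the interferon (IFN) arm. All groups were labelled wild type and were grown in alpha-MEM with 10% fetal bovine serum. Control cultures were differentiated without IFN and IFN cultures with 50 mg/L of mouse interferon beta, a type I interferon, and both arms were sequenced at day 0, day 14 and day 21 with 2 libraries per group. Day 0 is the time, 2 days after confluence, at which differentiation was induced. The labels place IFN within differentiation and leave unsaid whether the IFN arm's day 0 cultures had met it before harvest. Nor do they say that the 2 libraries of a group came from separate cultures, so p-values may measure technical spread alone, and all cells come from 1 line.

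Osteoblasts arise from mesenchymal progenitors under the transcription factors Runx2 and, after it, Sp7. Preosteoblasts lay down a matrix of type I collagen and fibronectin first, and alkaline phosphatase, bone sialoprotein and osteocalcin follow as the matrix matures and takes up mineral. Type I interferon binds the receptor pair Ifnar1 and Ifnar2, which activates the kinases Jak1 and Tyk2 and a transcription factor complex with Stat2 and Irf9 that binds response elements in the promoters of interferon-stimulated genes.

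The day 0 libraries held between 31738353 and 38908453 counts and between 20974 and 21943 genes with at least 1 count, and 17289 genes were tested. Levels within a gene are given as CPM, read counts scaled to library size with TMM, and levels between genes as TPM, which also divides by exon length. Where 4 values are given in a row, their order is control replicate 1, control replicate 2, IFN replicate 1 and IFN replicate 2. Control replicate 1 stood apart. The median absolute log2 CPM difference over the tested genes was 0.41 between the 2 control replicates, 0.44 and 0.43 between control replicate 1 and the IFN libraries, and between 0.12 and 0.13 for each of the 3 pairs that leave it out. Of 9772 genes whose mean log2 CPM reached 3, 2155 lay more than 0.5 log2 outside the range of the other 3 libraries in control replicate 1, against 1 in control replicate 2, 8 in IFN replicate 1 and 1 in IFN replicate 2. The biological coefficient of variation was 0.341 between the control replicates and 0.0549 between the IFN replicates. No pair agreed within sampling noise: squared count differences were at least 4.05 times their counting expectation at the median gene. No library was therefore counted as a repeat deposit of another, but separate preparations of 1 RNA would also exceed counting noise. Where leaving out control replicate 1 changed a call or moved a count by over 1.5 times below, the value without it is given.

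**Figure D1:**
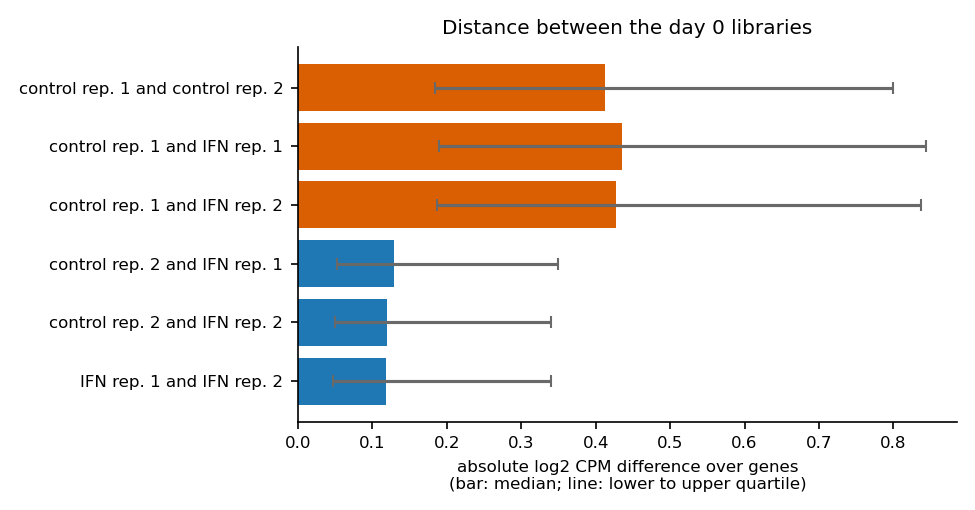
Median absolute log2 CPM difference over 17289 genes for each pair of day 0 libraries, with lines from the first to the third quartile. The pairs that include control replicate 1 (orange) lie between 0.41 and 0.44 and the other 3 pairs between 0.12 and 0.13.

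The baseline transcriptome was broad. In all 4 libraries 11228 protein-coding genes reached 1 TPM, 1846 reached 100 TPM and 71 reached 1000 TPM, and the 10 most abundant genes of each library made up between 5.98% and 6.06% of its TPM. Housekeeping and matrix genes shared the top of the order. Eef1a1, a translation elongation factor, had the highest level at 9017 ± 569 TPM (SD over the 4 libraries, here and below), ahead of the iron storage subunit Fth1 at 7847 ± 1154 TPM. These and the ribosomal protein genes Rplp0, Rplp1, Rps2 and Rps3a1, also among the 25 highest, have processed copies elsewhere in the genome, so their levels are uncertain. The other non-matrix genes among the 25 included the smooth muscle actin Acta2 (5963 ± 33.7 TPM), the MHC class I light chain B2m (5847 ± 745 TPM), the galectin Lgals1 (4859 ± 648 TPM) and the membrane protein Ifitm3 (3277 ± 187 TPM), a gene known for its response to interferon. Matrix-related genes stood beside them, namely Spp1, Fn1, Col1a2, Col1a1, Bgn, the collagen chaperone Serpinh1 and the protease inhibitor Timp2. S100a11, a calcium-binding protein, was at 4495, 1879, 1885 and 1833 TPM, high in control replicate 1 alone.

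Ordering by CPM, which favours long transcripts, kept 13 of the 25. By that measure Fn1 was first and Col1a2 second, with Timp3 and the endocytic receptor Lrp1 also among the 10 highest. Among them too was CT010467.1, annotated as a ribosomal RNA gene, at 21075, 1103, 107 and 693 CPM. It was high in control replicate 1 alone.

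All 18 listed transcription factors of the osteoblast lineage had counts, and 16 reached 1 CPM in all 4 libraries. Runx2, the factor that commits cells to the lineage (chromosome 17, 44495987 to 44814797, mm10), was at 49.4, 52.8, 53.1 and 53.5 TPM. The 4 libraries lay within a narrow band, and the arms differed by log2 0.03 ± 0.21 (SE; edgeR adjusted p = 0.999), or -0.02 without control replicate 1. Sp7, also called osterix, which acts after Runx2 (chromosome 15, 102356606 to 102367182), was at 5.03, 8.51, 7.82 and 7.79 TPM, lowest in control replicate 1. Higher levels were measured for Atf4, a stress and amino acid response factor needed for collagen synthesis (792, 577, 593 and 615 TPM). The paired homeobox factors of limb and skull mesenchyme followed, with Prrx2 at 549, 505, 467 and 484 TPM and Prrx1 at 406, 481, 509 and 513 TPM. Each of these was at a high level in all 4 libraries. Twist1, which holds back Runx2 in early cells, was at 135, 192, 192 and 205 TPM. Dlx5, a homeobox factor that promotes osteoblast genes, was at 73.6, 36.1, 37.3 and 39.3 TPM, and its relative Dlx3 did not exceed 0.670 TPM in any library. Dlx5 was therefore higher in control replicate 1 than in the other 3 libraries, which agreed closely. The summed level of the list was 2589.6, 2293, 2309 and 2379.8 TPM.

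Of 17 bone matrix and mineral genes 10 reached 1 CPM in all 4 libraries. Spp1, osteopontin, was at 5239.8, 6173, 6057 and 6137 TPM, and Sparc, osteonectin, was at 2325, 2275, 2212 and 2232 TPM. The arms overlapped for Spp1, and for Sparc both IFN libraries lay slightly below both controls. Mgp, an inhibitor of calcification, was at 284, 1128, 1105 and 1092 TPM, and Dmp1, an acidic matrix protein known from osteocytes, at 41.5, 136, 124 and 132 TPM. Both were lower in control replicate 1 than in the other 3 libraries. Bglap, osteocalcin, the late osteoblast hormone and matrix protein (chromosome 3, 88383501 to 88384464), had 14, 26, 40 and 27 counts, or 3.05, 4.59, 8.78 and 5.33 TPM, and shares close copies on the same chromosome, so its reads may be divided. Alpl, tissue-nonspecific alkaline phosphatase (chromosome 4, 137741733 to 137796384), had 18, 117, 109 and 88 counts, or 0.601, 3.17, 3.67 and 2.66 TPM. It was lowest in control replicate 1, and the other 3 libraries were alike. Bone sialoprotein Ibsp had 0, 0, 2 and 0 counts, the phosphoglycoprotein Mepe 0, 0, 0 and 1 counts, and the pyrophosphate-producing enzyme Enpp1 had 0 counts in all 4. A gene with 0 counts over the 4 libraries may be present at up to 0.0218 CPM (3 counts of 137685399). Phospho1, a matrix vesicle phosphatase, was at 11.5, 5.87, 6.55 and 6.37 TPM, but 89.6% of its exon bases are shared with Zfp652, so its value is uncertain.

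**Figure D2:**
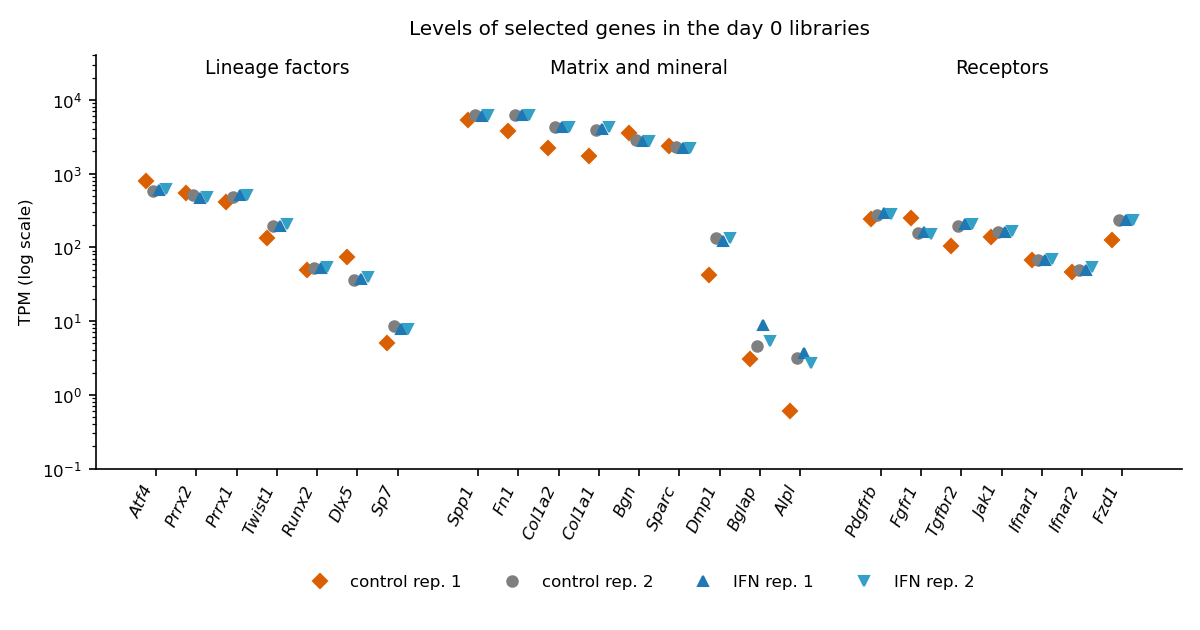
TPM on a log axis in each day 0 library for lineage factors (left), matrix and mineral genes (middle) and receptors (right), 1 point per library. Control replicate 1 lies below the other 3 for the collagens, Fn1, Dmp1 and Alpl and close to them for Runx2 and Ifnar1, and Bglap and Alpl lie below 10 TPM in every library.

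Type I collagen led the structural matrix. Col1a1 (chromosome 11, 94936224 to 94953042) was at 1715, 3933, 4037 and 4259 TPM and its partner chain Col1a2 at 2205, 4212, 4219.6 and 4242 TPM. Control replicate 1 was the low library for both, and the other 3 lay close together. Type III collagen, Col3a1, a chain of early and soft matrix, was at 335, 719, 735 and 742 TPM, and type V, which seeds fibrils, was at 301, 438, 444 and 453 TPM for Col5a2. All 9 fibril-forming collagens were more than 0.5 log2 below the other 3 libraries in control replicate 1, a position that 16.9% of all tested genes held. Their summed level was 4871, 9889.7, 10029 and 10294 TPM. Of 13 other collagens, 9 were in that position and 0 in the opposite one. Of all tested genes 28.9% lay outside the other 3 by that margin in either direction. Among these other collagens type VI was the most abundant, with Col6a1 at 503, 949, 960.3 and 932 TPM and Col6a3 at 576, 818, 821 and 820.1 TPM. The fibril-associated chain Col12a1 was at 463, 586, 610.001 and 620.1 TPM.

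Among 20 matrix glycoproteins and proteoglycans, Fn1, fibronectin, the scaffold on which collagen assembles, was at 3725, 6196, 6131 and 6142 TPM and Bgn, biglycan, a small proteoglycan of bone, at 3569, 2807, 2749 and 2777 TPM. The first was lowest and the second highest in control replicate 1. Ccn1, an adhesive matricellular protein, was at 359.9, 1209, 1414 and 1523 TPM, while its relative Ccn2 was at 55.4, 64.9, 78.3 and 87.7 TPM. Proteoglycans that coat collagen fibrils were also low in control replicate 1: Dcn, decorin, was at 81.5, 364, 366 and 369 TPM and Lum, lumican, at 0.770, 15.1, 16.7 and 14.7 TPM. Of the 19 tested members, 11 were more than 0.5 log2 below the other 3 libraries there and 0 above. The shares over all tested genes were 16.9% below and 12.01% above.

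Genes that fold, crosslink and turn over the matrix were expressed throughout, with 24 of 25 at 1 CPM or more in all 4 libraries. Serpinh1, the collagen chaperone, was at 2641, 3599.6, 3446 and 3483 TPM, and Timp2, an inhibitor of matrix proteases, at 3608, 3868, 3872 and 3842 TPM. Timp3, its matrix-bound relative, was at 524, 2052, 2169 and 2164 TPM and so was low in control replicate 1 alone. Mmp13, a collagenase of bone, was at 10.2, 16.2, 19.4 and 24.2 TPM.

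Contractile genes formed the other abundant group. Acta2, smooth muscle alpha actin (chromosome 19, 34241090 to 34255590), was at 5957, 5936, 6012 and 5949 TPM, and the myosin light chain Myl9 at 590.1, 645, 648 and 663 TPM. These values hardly varied between the 4 libraries, control replicate 1 included. Flna, filamin A, was at 1067, 1500.0, 1542 and 1519 TPM, Cnn2, a calponin, at 734, 851, 851 and 866 TPM and Tpm2, a tropomyosin, at 444, 539.6, 577 and 569 TPM. In contrast Tagln, the smooth muscle protein transgelin, did not exceed 2.39 TPM, with 67.9% of its exon bases shared with an antisense gene, so that its value is uncertain. Serum response factor binds the CArG box in promoters of many contractile genes, and 4 of 10 contractile genes with a promoter in the reference table (Cnn2, Myl9, Srf and Vcl) hold that motif on either strand, against 1.81% of 27025 genes. The Myl9 promoter is shown as the example of this group, from 250 bases before to 50 after the start of transcription (RefSeq, GRCm38.p6, chr2:156775214-156775513, plus strand). Capitals mark the CArG box, which starts at position -161 relative to the start site.
Myl9: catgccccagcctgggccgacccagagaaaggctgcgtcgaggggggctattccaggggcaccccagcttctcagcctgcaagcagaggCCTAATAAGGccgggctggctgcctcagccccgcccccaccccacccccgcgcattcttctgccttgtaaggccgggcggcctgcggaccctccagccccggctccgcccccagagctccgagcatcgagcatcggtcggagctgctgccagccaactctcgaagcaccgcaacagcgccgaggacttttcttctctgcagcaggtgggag
A match of letters is a description and not evidence of binding.

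Markers of other lineages were mostly low in these cells, with exceptions. Of 13 chondrocyte markers 4 reached 1 CPM in all 4 libraries, led by Sox9, the cartilage and osteochondroprogenitor factor (chromosome 11, 112782224 to 112787760), at 184, 112, 113 and 124 TPM. Sox9 was highest in control replicate 1. Acan, aggrecan, did not exceed 0.166 CPM, and Col2a1, type II collagen, was at 2.999, 3.71, 4.21 and 4.51 TPM. Of 10 macrophage and osteoclast markers 3 reached that level, the collagen-degrading protease Ctsk at 903, 652, 574 and 605 TPM, the lysozyme Lyz2 at 44.3, 112, 91.5 and 95.6 TPM and the lysosomal glycoprotein Cd68 at 30.6, 4.26, 6.58 and 5.63 TPM. The myeloid-defining members Adgre1 and Tyrobp had 0 counts, as did Itgam, which shares 68.7% of its exon bases with another gene. Ctsk and Cd68 were highest, and Lyz2 lowest, in control replicate 1.

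Of 10 adipocyte markers 3 reached 1 CPM in all 4 libraries, and the list summed to between 64.5 and 74.2 TPM per library. Pparg, the adipogenic factor, had 2, 0, 0 and 0 counts. Skeletal muscle markers summed to between 7.72 and 12.1 TPM, with Myod1 at 0 counts, endothelial markers to between 2.99 and 6.81 TPM, and epithelial markers to between 5.47 and 8.09 TPM. Neural and glial markers summed to between 75.8 and 108 TPM, most of it the tubulin Tubb3 at 71.7, 102, 81.3 and 94.1 TPM, and tendon markers to between 60.6 and 69.9 TPM. Of 9 osteocyte markers 6 reached 1 CPM throughout, led by the membrane glycoprotein Pdpn at 785, 401, 399.7 and 398 TPM, and Sost, the sclerostin gene of mature osteocytes, had 0 counts. In such bulk libraries fewer cells of a type and less RNA per cell cannot be told apart.

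The cells carried both chains of the type I interferon receptor at day 0. Ifnar1 (chromosome 16, 91485238 to 91507441) was at 67.4, 67.3, 67.2 and 69.004 TPM and Ifnar2 (chromosome 16, 91372783 to 91405589) at 45.96, 49.5, 49.2 and 53.6 TPM. Both lay within a narrow range and neither arm stood apart, with arm differences of log2 -0.02 ± 0.23 and 0.08 ± 0.19. The receptor kinases Jak1 and Tyk2 were at 139, 160.1, 160.4 and 164 TPM and at 29.4, 26.7, 30.1 and 28.4 TPM. Stat2, which joins Irf9 in the activated complex, was at 20.4, 24.9, 38.2 and 28.2 TPM, highest in IFN replicate 1, and Irf9 was at 11.3, 8.21, 13.2 and 9.81 TPM. Of 15 listed members of this pathway 14 reached 1 CPM in all 4 libraries.

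Growth factor and hormone receptors were led by Pdgfrb, the platelet-derived growth factor receptor of mesenchyme, at 239.9, 273, 292 and 286 TPM, and Igf2r, which clears insulin-like growth factor 2, at 174, 195, 191 and 193 TPM. Fgfr1, a fibroblast growth factor receptor, was at 251, 154, 160.2 and 152 TPM and was highest in control replicate 1. Nr3c1, the glucocorticoid receptor, was at 107, 177, 177 and 186 TPM and the leukemia inhibitory factor receptor Lifr at 62.3, 103, 106 and 101 TPM. Both were lowest in control replicate 1. Vdr, the vitamin D receptor, was at 30.2, 27.2, 27.7 and 29.3 TPM. Pth1r, the parathyroid hormone receptor of mature osteoblasts, had 0, 15, 13 and 10 counts, close to the detection limit. Of the 23 tested receptors 9 lay more than 0.5 log2 below the other 3 libraries in control replicate 1 and 1 above. Over all tested genes 16.9% lay below and 12.01% above.

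In the BMP and TGF-beta system, whose ligands drive osteoblast commitment and matrix synthesis, Tgfbr2, a TGF-beta receptor, was at 104, 195, 208 and 206 TPM and the BMP receptor Bmpr1a at 101, 105, 113 and 112 TPM. Tgfbr3, betaglycan, was at 112, 139, 137 and 139 TPM. Tgfbr2 was low in control replicate 1, and the other receptors overlapped more between libraries. Among ligands and targets, Id4, a helix-loop-helix inhibitor, was at 91.8, 442, 487 and 526 TPM, Grem1, a BMP antagonist, at 552, 283, 276 and 285 TPM, and Bmp2 had 0 counts. Id4 was low and Grem1 high in control replicate 1.

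Wnt and Notch receptors summed to 798, 1029.8, 1039 and 1044 TPM. Fzd1 led them at 126, 234, 235 and 232 TPM, ahead of the receptor kinase Ryk at 163, 146, 166 and 151 TPM and Fzd7 at 116, 131, 127 and 135 TPM. Fzd1 was lower in control replicate 1, and Ryk and Fzd7 varied less between the libraries. The Wnt co-receptor Lrp5, known for its effect on bone mass, was at 58.4, 74.2, 69.8 and 75.3 TPM. The secreted Wnt modulator Dkk3 was at 730.3, 1146, 1109.8 and 1096 TPM and the transducer Ctnnb1, beta-catenin, at 634, 739.8, 723 and 714 TPM. Sfrp2, a secreted Wnt antagonist, was at 19.8, 136, 129 and 140.2 TPM, whereas Sfrp1 had 0 counts. Integrin beta 1, Itgb1, was at 648, 868, 866 and 857 TPM, and Cdh11, the osteoblast cadherin, at 582, 756, 754 and 759 TPM.

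Signals to osteoclasts were uneven. Csf1, the macrophage colony-stimulating factor, was at 1143, 972, 972 and 974 TPM and the decoy receptor osteoprotegerin, Tnfrsf11b, at 47.5, 85.004, 92.03 and 86.5 TPM. Tnfsf11, the osteoclast differentiation factor RANKL, had 0 counts, so a ratio of it to osteoprotegerin cannot be formed. Of 9 insulin-like growth factors and binding proteins 5 reached 1 CPM in all 4 libraries and 3 had 0 counts. The most abundant were Igfbp4 at 277, 953, 941 and 933 TPM, Igfbp6 at 533, 591, 519 and 547 TPM and Igfbp5 at 214, 603, 642 and 657 TPM. Igfbp4 and Igfbp5 were low in control replicate 1 and Igfbp6 was not. Igf1 itself was at 10.01, 23.7, 26.1 and 26.1 TPM.

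The genes by which control replicate 1 differed from the other 3 libraries fell into groups. Since this library was singled out by its values, the differences are described without a test. Immediate early genes, which respond within minutes to serum, stress or handling, were low there. Fos was at 2.22, 407, 354 and 395 CPM and its relative Fosb at 5.82, 390.1, 379 and 403 CPM. Klf2, a zinc finger factor, was at 11.5, 72.2, 57.5 and 66.9 CPM, and Zfp36, which speeds the decay of cytokine messages, at 18.1, 121, 118 and 142 CPM. In each case the other 3 libraries lay close together. Of 17 immediate early genes 14 lay more than 0.5 log2 below the other 3 (16.9% of all tested genes). By that margin 1 gene, Myc, lay above (12.01% of all tested genes), at 123, 51.2, 53.9 and 53.7 CPM. The 17 genes had a median difference from control replicate 2 of -1.59 log2, against -0.03 for all genes. IFN replicates 1 and 2 were at -0.04 and 0.18. The promoter of Zfp36 (RefSeq, GRCm38.p6, chr7:28379179-28379478, minus strand) is shown because it is a low gene with a CArG box, the element through which serum response factor acts on such genes. The box is in capitals and starts at position -58, and 2 of the 13 members with a promoter (Egr2 and Zfp36) hold one.
Zfp36: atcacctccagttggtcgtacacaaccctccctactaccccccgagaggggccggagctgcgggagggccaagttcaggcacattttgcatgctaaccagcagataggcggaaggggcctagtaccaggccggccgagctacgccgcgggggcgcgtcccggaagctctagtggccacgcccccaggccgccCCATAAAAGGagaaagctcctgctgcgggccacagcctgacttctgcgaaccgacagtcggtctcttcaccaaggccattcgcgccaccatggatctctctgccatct

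Cholesterol synthesis genes were high in control replicate 1. All 14 tested members lay more than 0.5 log2 above the other 3 libraries, as did 12.01% of all tested genes (2077 of 17289), with a median difference from control replicate 2 of 1.16 log2, against -0.05 and -0.03 for the IFN libraries. The sterol demethylase Cyp51 was at 199.9, 60.1, 53.5 and 56.1 CPM, and Srebf2, the factor that turns on this pathway when sterol is low, at 291, 137, 125 and 127 CPM. Hmgcs1, which makes the precursor of mevalonate, was at 56.6, 37.4, 38.997 and 39.3 CPM. Its promoter is shown because it is the only 1 of the 9 members with a promoter to hold the sterol regulatory element searched for, TCACNCCAC on either strand, which 1.44% of all 27025 genes hold (RefSeq, GRCm38.p6, chr13:119690101-119690400, plus strand). The element is in capitals and starts at position -137.
Hmgcs1: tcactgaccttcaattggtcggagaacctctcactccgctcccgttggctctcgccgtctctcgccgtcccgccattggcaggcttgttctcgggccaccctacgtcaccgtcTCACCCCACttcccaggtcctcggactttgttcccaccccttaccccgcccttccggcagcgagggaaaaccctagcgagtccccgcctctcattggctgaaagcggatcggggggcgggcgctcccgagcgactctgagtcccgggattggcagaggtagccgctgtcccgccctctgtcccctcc

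Cell cycle genes were high in the same library, with 20 of 26 above the other 3 by that margin (12.01% of all tested genes) and 0 below, and a median difference of 0.83 log2 from control replicate 2. Mki67, a marker of cycling cells, was at 305, 161, 162 and 168 CPM and the replication helicase subunit Mcm3 at 238, 119.8, 107 and 121 CPM. The other 3 libraries lay close together for both. Of 14 tested RNA species that lack a poly(A) tail or stay in the nucleus, 7 lay above the other 3 libraries in control replicate 1. By the same margin 3 lay below. Over all tested genes 12.01% lay above and 16.9% below, so the 3 below were near their share. Rn7sk, a small nuclear RNA, was at 71.6, 1.44, 3.11 and 2.19 CPM, whereas the long nuclear RNAs Malat1 and Neat1 were lowest in that library, at 498, 761, 1332 and 1068 CPM and at 125, 280.2, 388 and 325 CPM. The predicted genes Gm23935 and Gm24270, which are not on that list, were at 1238, 170.3, 14.95 and 107 CPM and at 176, 9.69, 1.93 and 6.999 CPM. These, Rn7sk and CT010467.1 were highest in control replicate 1, but the other 3 libraries did not lie together for CT010467.1, Gm23935 and Gm24270, where IFN replicate 1 was the lowest. Whether RNA quality, depth or growth state had a part in these differences was not tested.

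Of the 8 genes furthest apart in each direction between the control replicates, among those whose mean log2 CPM reached 4, those lower in replicate 1 were Fos, Fosb, Pgm5, Enpep, Sned1, Thsd4, Dio2 and Trp63. Enpep, the angiotensin-cleaving aminopeptidase A, was at 12.1, 135, 135 and 149.997 CPM, Dio2, which activates thyroid hormone, at 5.66, 59.98, 61.2 and 67.6 CPM, and Trp63, a p53 family factor, at 14.8, 125, 124 and 129.5 CPM. For all 3 the 3 other libraries were alike. Those higher in replicate 1 included Prl2c2, CT010467.1, Gm24270, Lars2, Gm23935, Hmox1 and Nsdhl. The placental hormone gene Prl2c2, which has close copies and so an uncertain level, was at 214, 8.91, 7.70 and 7.55 CPM, the heme-degrading enzyme Hmox1 at 513, 119, 110.4 and 111 CPM and the mitochondrial leucyl-tRNA synthetase Lars2 at 569.9, 69.9, 23.8 and 49.99 CPM. Lars2 followed the order of CT010467.1 over the 4 libraries.

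**Figure D3:**
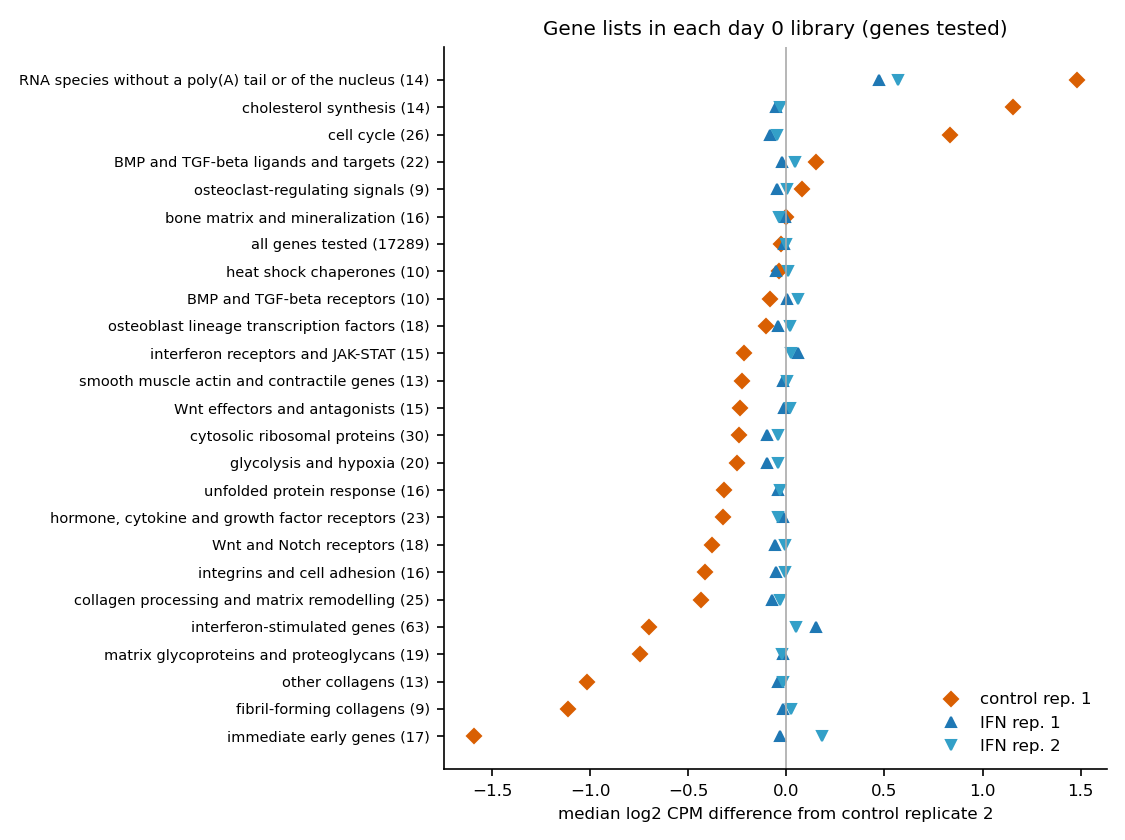
Median log2 CPM difference from control replicate 2 over the tested members of each gene list, for control replicate 1, IFN replicate 1 and IFN replicate 2. Control replicate 1 reaches 1.16 for cholesterol synthesis and -1.59 for immediate early genes, while both IFN libraries stay near 0 for these lists.

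The IFN replicates agreed far more closely. Apart from CT010467.1, Gm23935 and Lars2, the gene furthest apart between them in either direction whose mean log2 CPM reached 4 was CT010467.2, at 43.2, 22.96, 43.4 and 22.99 CPM, followed by Gm43573 at 7.85, 15.5, 14.3 and 20.7 CPM. The cytokine gene Clcf1 was at 14.6, 15.5, 20.4 and 14.5 CPM and the antiviral gene Ifit1 at 4.80, 13.1, 25.3 and 18.6 CPM. Both were higher in IFN replicate 1 than in IFN replicate 2.

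The arms were then compared at day 0, to see whether they started alike. edgeR called 0 of 17289 genes higher (0.0%) and 1 lower (0.00578%) in the IFN arm, with 381 genes at an unadjusted p under 0.05, and DESeq2 also called 1. With no filter on low counts edgeR called 88. All 88 were also kept by the main filter, and 19 of them were at most 3 CPM in all 4 day 0 libraries. Why more genes passed in that fit was not tested. In the main fit only 1 gene was called. The gene called lower was Bpifc, a member of the lipid-binding BPI family (chromosome 10, 85959340 to 86011895, chosen after its values were seen), with 32 and 33 counts in the control libraries and 0 in both IFN libraries, at least 20.8-fold lower when the IFN group is set at 3 counts. The edgeR adjusted p was 0.0223. The call was lost when either IFN library or control replicate 1 was left out (edgeR adjusted p between 0.171 and 0.350), with only the 4 day 0 libraries in the fit (0.824), with the replicate block (0.0803) and without the outlying pair of control libraries (0.123), which adds control day 21 replicate 2. The fitted log2 difference in these fits, which depends on the prior count, stayed between -8.01 and -7.83. At days 14 and 21 Bpifc lay between 1.84 and 8.69 CPM in all 8 libraries.

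Arm differences of several gene lists were smaller without control replicate 1. Over all genes 17.5% had both IFN libraries above both controls and 18.7% had both below. Cell cycle genes had a median arm difference of -0.55 log2, with 16 of 26 lower without overlap, and cholesterol synthesis genes -0.81, with 7 of 14. Without control replicate 1 the medians were -0.06 and -0.06. Fibril-forming collagens went from 0.45 to 0.01 and immediate early genes from 0.64 to 0.05, and 0 members of these 4 lists were called. Col1a1 was 0.52 ± 0.41 log2 apart and 0.05 without control replicate 1. For Sp7, Alpl and Sox9 the sign turned, from 0.17 ± 0.36, 0.69 ± 0.69 and -0.35 ± 0.22 to -0.16, -0.04 and 0.06, and none of the 3 was called either way. Others kept their size without control replicate 1: Irf7 was at 0.64 ± 0.35 and 0.68, and Ccbe1 at -2.12 ± 0.43 and -2.0, neither of them called. The Irf7 difference did depend on the IFN library, at 0.17 without IFN replicate 1 and 0.998 without IFN replicate 2.

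Of 64 listed interferon-stimulated genes 51 reached 1 CPM in all 4 day 0 libraries, and together they were at 1224, 1821, 2025 and 1889 TPM. Irf7, a factor that amplifies the response (chromosome 7, 141262706 to 141266481), was at 2.83, 2.69, 5.50 and 3.10 CPM, highest in IFN replicate 1, while IFN replicate 2 lay near the controls. Isg15, a ubiquitin-like modifier (chromosome 4, 156199424 to 156200818), was at 1.66, 6.82, 6.62 and 5.98 CPM, with control replicate 1 low and the other 3 alike. Ifit1, which binds foreign RNA (chromosome 19, 34640871 to 34650009), was at 4.80, 13.1, 25.3 and 18.6 CPM, with both IFN libraries above both controls. Oas2, an enzyme of the antiviral RNase L pathway, was at 0.246, 1.51, 5.41 and 1.83 CPM, and Ifi44 at 0.462, 1.56, 5.47 and 2.55 CPM, both highest in IFN replicate 1. Ifit1 and the Oas genes have close copies, so their reads may be divided.

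Promoters of this group carry the interferon-stimulated response element. The letters GAAANNGAAA, searched on both strands with overlapping matches allowed, occur in 23 of the 48 listed genes with a promoter in the reference table (47.9%), against 3.99% of all 27025 genes. The promoters of Isg15 and Ifit1 are shown as genes of the group with and without arm overlap at day 0 (RefSeq, GRCm38.p6, chr4:156200769-156201068, minus strand, and chr19:34640639-34640938, plus strand). Capitals mark the matches, which start at positions -78, -72 and -66 in Isg15, where they overlap, and at -104 and -85 in Ifit1, where they lie on the opposite strand.
Isg15: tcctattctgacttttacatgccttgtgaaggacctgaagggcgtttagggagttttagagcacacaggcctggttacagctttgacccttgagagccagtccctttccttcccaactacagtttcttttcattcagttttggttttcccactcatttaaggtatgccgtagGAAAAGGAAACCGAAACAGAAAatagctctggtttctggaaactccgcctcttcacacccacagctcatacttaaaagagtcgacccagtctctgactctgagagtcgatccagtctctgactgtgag
Ifit1: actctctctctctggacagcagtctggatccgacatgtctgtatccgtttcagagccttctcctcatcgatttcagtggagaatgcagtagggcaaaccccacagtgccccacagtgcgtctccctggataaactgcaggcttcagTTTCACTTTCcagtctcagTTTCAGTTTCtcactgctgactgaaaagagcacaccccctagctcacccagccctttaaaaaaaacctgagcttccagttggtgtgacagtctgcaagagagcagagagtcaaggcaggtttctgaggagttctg

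Of the 63 tested interferon-stimulated genes 28 had both IFN libraries above both controls (17.5% of all genes) and 1 both below (18.7%). Of the same 63 edgeR called 0, with 1 at an unadjusted p under 0.05 (DESeq2 called 0, with 4). With no filter on low counts edgeR called 9 of 64, all higher in the IFN arm, with 30 at an unadjusted p under 0.05. The main filter also kept these 9. Over the 63 tested genes the median arm difference was 0.45 log2, against 0.00 for all genes, and 0.11 without control replicate 1. Against control replicate 2 alone, both IFN libraries were higher for 32 genes and lower for 11. Of all 17289 tested genes 30.9% had both higher and 6259 had both lower. A fit with control day 0 replicate 2 and the 6 IFN libraries only, added after the data were seen, called 1 of the list, the guanylate-binding GTPase Gbp3, at 6.46, 5.74, 10.4 and 7.995 CPM (log2 0.67 ± 0.12, edgeR adjusted p = 0.0374), which gives control replicate 2 the spread of the IFN libraries. Isg15 turned from 0.56 ± 0.57 to -0.11 when control replicate 1 was left out.

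Whether the arms differed at day 0 as they did under treatment was asked by comparing the arm difference at day 14 with that at day 0. In edgeR 75 genes (0.434%) had a larger arm difference at day 14 and 28 (0.162%) a smaller or more negative one. Interferon-stimulated genes made up 38 of the former and 0 of the latter, with a median change of 3.44 log2 against 0.00 for all genes. The change was 6.57 ± 0.51 log2 for Irf7 (edgeR adjusted p = 0.000969) and 4.40 ± 0.82 for Isg15 (0.0479). The count rests on both IFN day 0 libraries: 8 genes of the list passed without IFN replicate 1 and 7 without IFN replicate 2, in fits that give the lone library the spread of the remaining groups.

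**Figure D4:**
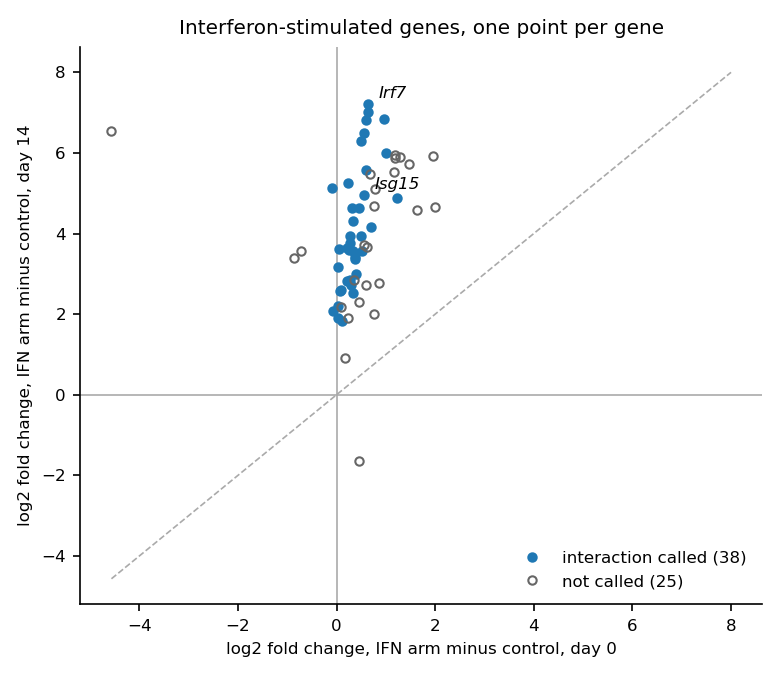
Log2 arm difference (IFN minus control) at day 0 (x axis) and at day 14 (y axis) for the 63 tested interferon-stimulated genes, 1 point per gene, filled where the change between days was called (38) and open where it was not (25). The dashed line marks equal differences, and most points lie far above it.

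To place the starting state in the series, the 4 day 0 libraries were set against the 8 libraries of days 14 and 21, both arms together. Time in culture and differentiation cannot be told apart in this comparison, and it averages over treated and untreated cultures. edgeR called 1947 genes higher (11.3%) and 1949 lower (11.3%) at day 0. With control day 0 replicate 1 left out, together with replicate 2 of control day 21, a second control library that stands apart, 3323 were higher (18.1%) and 3318 lower (18.1%). In the control arm alone 419 (2.42%) and 481 (2.78%) passed, and in the IFN arm alone 1364 (7.89%) and 1310 (7.58%). Both outlying libraries belong to the control arm and are part of its counts, here and below.

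Among lineage factors 3 of 18 were higher at day 0 and 3 lower. Prrx1 was higher at day 0 (log2 1.74 ± 0.10 (SE), edgeR adjusted p = 4.47e-06), against 271, 344 and 559 CPM as lowest, median and highest of the later libraries, and no later library reached a day 0 value. Sp7 was lower at day 0 (log2 -1.47 ± 0.23 (SE), edgeR adjusted p = 0.00165), with later libraries at 8.84, 15.97 and 28.4 CPM. Runx2 was not called (log2 0.11 ± 0.13 (SE), edgeR adjusted p = 0.582), with later libraries at 71.8, 94.8 and 126 CPM, which span the day 0 range of CPM. Without the pair of outlying control libraries 5 were higher and 4 lower.

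Bone matrix and mineral genes were lower at day 0 in 8 of 16 cases and higher in 1, Sparc, with a median of -0.997 log2 and the same counts without the pair of outlying libraries. Spp1 was lower (log2 -1.57 ± 0.19 (SE), edgeR adjusted p = 0.000317), as were Alpl (log2 -2.25 ± 0.46 (SE), edgeR adjusted p = 0.00607) and Mgp (log2 -1.56 ± 0.31 (SE), edgeR adjusted p = 0.00567). Alpl lay at 0.554, 2.95, 3.29 and 2.43 CPM at day 0 and at 4.09, 10.4 and 29.97 CPM later, so that the groups did not overlap. Its difference was -1.61 without the outlying pair. Ibsp, with 2 counts in all at day 0, lay at 0.616, 10.9 and 23.6 CPM later, and Bglap, at 0.292, 0.857 and 6.88 CPM later, was not called (log2 -0.77 ± 0.63 (SE), edgeR adjusted p = 0.410) and turned to 0.25 without the outlying pair.

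Collagen counts differed between the arms, but the control arm includes control day 0 replicate 1, in which all 9 fibril-forming collagens were low. No control-arm count without that library is given, so the counts of the 2 arms are not a test of a difference between them. Of 9 fibril-forming collagens 6 were higher at day 0 and 0 lower, 9 and 0 without the outlying pair, 0 and 0 in the control arm alone and 9 and 0 in the IFN arm alone. The change of the arm difference from day 0 to day 14 had a median of -2.50 log2 over the 9, and 2, Col5a2 and Col11a1, were called lower (-1.73 ± 0.30, edgeR adjusted p = 0.0367, and -2.83 ± 0.50, 0.0393). With library size alone 0 of the 9 were called. The median arm difference was -1.89 log2 at day 14 and 0.45 at day 0, and the latter was 0.01 without control day 0 replicate 1. Col1a1 was higher at day 0 with both arms together (log2 0.94 ± 0.24 (SE), edgeR adjusted p = 0.0188). In the control arm alone it was at log2 -0.549 (edgeR adjusted p = 0.401) and in the IFN arm alone at 2.44 (0.00116), and its change of the arm difference was not called (-2.80 ± 0.59, edgeR adjusted p = 0.0839). It had later libraries at 1082, 2550.5 and 9724 CPM, whose range took in all 4 day 0 values. Col5a2 was higher as well (log2 0.85 ± 0.13 (SE), edgeR adjusted p = 0.00110). Of the 19 tested matrix glycoproteins 4 were higher and 5 lower, 8 and 5 without the outlying pair and 6 and 3 without control day 0 replicate 1 alone. Dcn was higher (log2 2.43 ± 0.28 (SE), edgeR adjusted p = 0.000273), with later libraries at 57.3, 69.4 and 94.9 CPM. Tnn, tenascin-W, was at 1.42, 1.96, 2.14 and 2.66 CPM at day 0 and 12.4, 86.5 and 442 CPM later (log2 -4.96 ± 0.24 (SE), edgeR adjusted p = 2.32e-06). Fn1 was not called with all libraries (log2 0.31 ± 0.15 (SE), edgeR adjusted p = 0.167) and was called without the outlying pair (log2 0.47, edgeR adjusted p = 5.75e-05) and without control day 0 replicate 1 alone (0.0182). Among 25 matrix processing genes 8 were higher and 6 lower, 8 and 3 without control day 0 replicate 1, with Timp2 at 1.12 ± 0.13 log2, P4ha3, a collagen prolyl hydroxylase subunit, at 1.53 ± 0.13 and Mmp13 at -3.31 ± 0.22, for which all 8 later libraries lay above all 4 day 0 libraries.

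Contractile genes were higher at day 0 than later. Of 13, 10 were higher at day 0 and 0 lower (median 1.24 log2), the same without the outlying pair, 5 and 0 in the control arm alone and 10 and 0 in the IFN arm alone. Acta2 was at 2991, 3006, 2940.4 and 2963 CPM at day 0 and at 237, 345 and 1832 CPM later (log2 2.63 ± 0.29 (SE), edgeR adjusted p = 0.000207), and Myl9 at 157, 173, 168 and 175 CPM and 11.1, 20.1 and 98.3 CPM (log2 2.78 ± 0.29 (SE), edgeR adjusted p = 0.000152). Neither gene's groups overlapped.

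Receptors were called in both directions. For hormone, cytokine and growth factor receptors the count lower at day 0 was near the share over all genes (11.3%). Of 23 hormone, cytokine and growth factor receptors 7 were higher at day 0 and 3 lower, 10 and 4 without the outlying pair. Lifr was higher (log2 2.08 ± 0.18 (SE), edgeR adjusted p = 4.33e-05), as was Pdgfrb (log2 0.73 ± 0.10 (SE), edgeR adjusted p = 0.000753), and Fgfr1 was lower (log2 -0.71 ± 0.17 (SE), edgeR adjusted p = 0.0129). Tgfbr2 was higher at day 0 (log2 0.93 ± 0.15), and of 18 Wnt and Notch receptors 5 were higher and 3 lower, 11 and 2 without the outlying pair, with Fzd1 at 1.10 ± 0.16 and Notch4 at -2.87 ± 0.39. The osteoblast cadherin Cdh11 was higher (log2 1.49 ± 0.15 (SE), edgeR adjusted p = 0.000134). Ifnar1 was higher at day 0 (log2 0.46 ± 0.14 (SE), edgeR adjusted p = 0.0349), a call that was lost without control day 0 replicate 1 (edgeR adjusted p = 0.0788), a fit that called 1806 of 18867 genes higher (9.57%) and 1633 lower (8.66%). Without the outlying pair it passed (0.00280).

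Secreted signals and their targets were mixed. Of 15 Wnt effectors and antagonists 5 were higher at day 0 and 3 lower, 8 and 4 without the outlying pair. The Wnt transcription factor Tcf7l2 was at 59.4, 52.7, 57.5 and 57.2 CPM at day 0 and at 17.7, 20.7 and 27.8 CPM later (log2 1.42 ± 0.10 (SE), edgeR adjusted p = 1.47e-05), so that no later library reached a day 0 value, while beta-catenin, Ctnnb1, was lower (log2 -0.45 ± 0.11). Of 22 BMP and TGF-beta ligands and targets 5 were higher and 4 lower, 7 and 8 without the pair. Id1 and the inhibitory Smad7, both targets of this signalling, were lower (log2 -1.28 ± 0.14 (SE), edgeR adjusted p = 0.000161, and log2 -1.48 ± 0.17), and Id4 was higher (log2 2.22 ± 0.30). Among 9 osteoclast-regulating genes 3 were higher and 1 lower, with osteoprotegerin, Tnfrsf11b, at 1.38 ± 0.28 log2 and Il34, a second ligand of the Csf1 receptor, at -1.57 ± 0.15. Cxcl12, a chemokine that retains blood progenitors in marrow, was higher (log2 1.37 ± 0.25), a call lost without the pair (edgeR adjusted p = 0.0506). Igfbp5 was higher and Igfbp7 lower (log2 1.42 ± 0.27 and -0.88 ± 0.14), and Vegfa, the angiogenic factor, was lower (log2 -1.18 ± 0.21 (SE), edgeR adjusted p = 0.00330).

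Over all genes 11.3% were called higher at day 0 and 11.3% lower with all libraries. The counts below for unfolded protein response and ribosomal protein genes with all libraries are near that share. The larger shares without the outlying pair are given above. Interferon-stimulated genes were lower at day 0 in 58 of 63 cases and higher in 0, a comparison in which the treated libraries are averaged in. Of these genes 11 were lower and 1 higher in the control arm alone and 62 and 1 in the IFN arm alone. Immediate early genes were higher at day 0 in 4 of 17 cases and lower in 0, and in 13 and 2 without the outlying pair. Fosb was higher (log2 3.54 ± 0.78 (SE), edgeR adjusted p = 0.0105), and Fos was not called with all libraries (log2 3.09 ± 1.01 (SE), edgeR adjusted p = 0.0546) but was without that pair (log2 4.77, edgeR adjusted p = 0.00143) and without control day 0 replicate 1 alone (0.0127). Cell cycle genes were higher in 5 of 26 cases and lower in 0, with 8 higher without the pair, 1 without control day 0 replicate 1 alone and 13 without control day 21 replicate 2 alone. Mki67 was higher (log2 1.15 ± 0.25 (SE), edgeR adjusted p = 0.00900), a call lost without control day 0 replicate 1 alone (0.0532). Glycolysis genes were lower in 7 of 20 cases, 3 without the pair and 3 without control day 0 replicate 1 alone. Unfolded protein response genes were lower in 2 of 16 and higher in 0, 11 and 3 without the pair, and 0 and 0 without control day 0 replicate 1 alone. Ribosomal protein genes were lower in 4 of 30, 12 without the pair and 2 without that library alone.

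**Figure D5:**
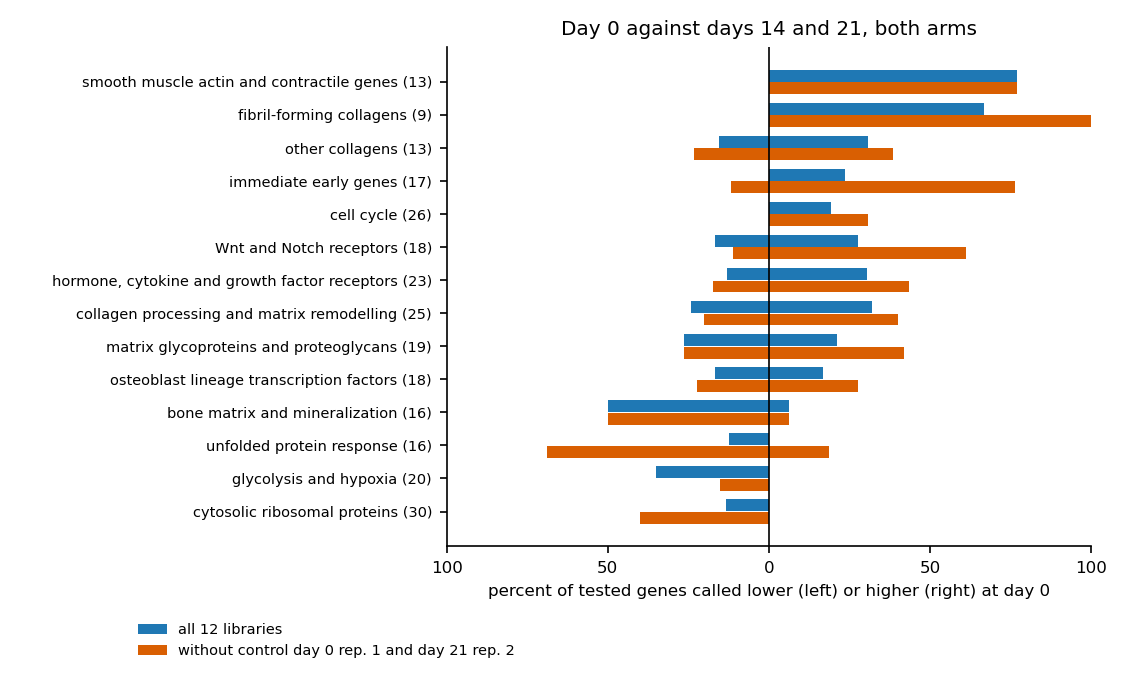
Percent of tested genes in each list called lower (left) or higher (right) at day 0 than at days 14 and 21, with all 12 libraries and without the outlying pair of control libraries. Contractile genes lie on the right with 10 of 13. Bone matrix and mineralization genes lie mostly on the left, with 8 of 16 lower and 1 higher. Over all genes, which are not drawn, 11.3% were called in each direction with all 12 libraries.

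Called genes whose mean log2 CPM over all libraries reached 3 were ordered by fold. Ccn3, a matricellular growth regulator, was at 382, 1961, 1856 and 1918 CPM against 43.1, 75.6 and 181 CPM later (log2 4.17 ± 0.35 (SE), edgeR adjusted p = 4.33e-05), the largest fold among those higher at day 0. Enpep, Fosb, Rspo2, a Wnt agonist, Ptn, pleiotrophin, and Cbr2, a carbonyl reductase, came next, with Rspo2 at 3.13 ± 0.35 log2, Ptn at 3.11 ± 0.18 and Cbr2 at 3.07 ± 0.14. Ccn3 was low in control replicate 1 and Rspo2 was alike in all 4 libraries. At the other end Ccbe1, a lymphatic growth factor cofactor, was at 0.831, 0.705, 0.121 and 0.221 CPM at day 0 and at 37.1, 39.2 and 72.3 CPM later (log2 -7.003 ± 0.25 (SE), edgeR adjusted p = 4.62e-07). The adipocyte fatty acid carrier Fabp4 was at 2.03, 1.26, 0.846 and 0.968 CPM against 6.88, 25.04 and 53.7 CPM later (log2 -4.16 ± 0.24), and Sox9 was lower at day 0 as well (log2 -0.65 ± 0.14 (SE), edgeR adjusted p = 0.00836). Fabp4 does not stand for the adipocyte markers, of which 5 were tested. Of these 2 were called higher at day 0 and 1 lower (11.3% of all genes in each direction). Neither Ccbe1 nor Fabp4 overlapped between day 0 and the later libraries.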

How the data were processed

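The deposited table holds whole-number read counts per gene for 12 libraries, made by the authors with HISAT2, SAMtools and featureCounts on mm10, per the submitters' processing notes; versions, annotation and use of strand are not given in the sources used here, so overlapping genes and close copies are uncertain. RNA was purified as mRNA from at least 3 µg, per the labels' protocols. Of 55291 symbols 53292 matched GENCODE M21 (mm10), the source of positions and exon lengths. The 37 mitochondrial symbols had 0 counts. Depth was 31738353 to 38908453 counts at day 0.

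Counts were fitted in R 4.3.3 with edgeR 4.0.16: filterByExpr over 6 groups (17289 genes), TMM, 1 coefficient for each group and quasi-likelihood F tests with robust shrinkage (6 residual degrees of freedom), Benjamini-Hochberg adjustment over all genes and a threshold of 0.05, called "called" here. All 12 libraries shared 1 estimate of the spread. Log2 CPM used a prior count of 2. TPM divides TMM-scaled CPM by merged exon length and is scaled to a fixed sum over 21535 protein-coding genes, a set chosen after the files were seen. Limits for 0 counts set the total at 3 counts and cover counting error only. Python 3.11.15 made the tables and figures. The procedure was tested on simulated data. Their biological coefficient of variation was set lower than that estimated over the 12 libraries (0.280). The simulation therefore does not show how small a difference the arm comparison could detect in these data. As alternatives, library size alone, RLE scaling, DESeq2 1.42.0, other filters, a fold threshold, only the day 0 libraries, a replicate block and leaving out libraries were tried. The difference between the 2 replicates of a group was correlated across genes with that of each other group. The correlation was above 0.1 in 2 of 15 pairs of groups, both within the control arm. The replicate numbers were not taken to pair libraries.

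The libraries, 34 gene lists, tests and naming rule were chosen with earlier results of these data known. Named are 10 fixed genes (Runx2, Sp7, Alpl, Bglap, Col1a1, Sox9, Ifnar1, Ifnar2, Irf7, Isg15), the 25 highest genes by TPM and the 10 highest by CPM, the 3 highest of each list and up to 3 called in the arm comparison, the extremes of the arm comparison, the 6 highest and lowest of day 0 against later with up to 2 called per list, and the 8 furthest apart between replicates in each direction. This gave 198 genes, of which those with most to show are described, and some are not reported here. Chosen after their values were seen were Acan, Adgre1, Bmp2, Bpifc, Col11a1, Dcn, Dlx3, Dlx5, Egr2, Enpp1, Fgfr1, Gbp3, Hmgcs1, Igf1, Itgam, Lrp5, Lum, Mepe, Myc, Myod1, Neat1, Nr3c1, Phospho1, Pparg, Pth1r, Rn7sk, Sfrp1, Sfrp2, Sost, Srf, Tagln, Tnfrsf11b, Tnfsf11, Twist1, Tyk2, Tyrobp, Vcl, Vdr and Zfp36. Promoter sequences are from RefSeq (27025 symbols).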

Additional observations from a re-analysis of the deposited data

Results flagged for a closer look

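The arm difference changed between day 0 and day 14 for 103 genes in edgeR, a test of the difference itself, and 38 of the 63 interferon-stimulated genes were among them, all with a larger difference at day 14. The change was 6.57 log2 for Irf7 and 4.40 log2 for Isg15. For Bpifc the fitted change was 8.92 log2, a value that depends on the prior count and is no bound, since both IFN day 0 libraries had 0 counts.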

How the results depend on the processing

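For the IFN arm against control at day 0 the count was 1 gene, and 0 with only the 4 day 0 libraries (175 at an unadjusted p under 0.05), with the replicate block (341) or without the outlying pair of control libraries (237), 2 in the added fit of control replicate 2 with the IFN libraries, 88 with no filter on low counts, and 0 to 50 with a day 0 library or control day 21 replicate 2 left out (50 without control replicate 2, which leaves replicate 1 alone). For interferon-stimulated genes it was 0, and 9 with no filter and 1 in the added fit. Day 0 against later gave 3896 genes, and 1733 with an absolute log2 fold of at least 1, 3636 with the replicate block, 6641 without the outlying pair, 900 in the control arm alone, and 1936 to 5437 with a library left out, the lowest without IFN day 0 replicate 1 (1937 without replicate 2). The change of the arm difference to day 14 gave 103, and 62 with library size alone, 476 in DESeq2, 829 with no filter, 72 with the replicate block, 601 without the outlying pair, and 16 to 492 with a library left out. These were 18 and 16 without IFN day 0 replicates 1 and 2, 492 when replicate 2 of control day 0 was dropped and 344 when that of control day 21 was. Of the interferon-stimulated genes 38 passed, 61 with no filter, 31 with the block, and 7 to 40 with a library left out. Bpifc at log2 -7.94 lost its call in 6 of 14 alternatives. Arm differences at day 0 that changed sign, none of them called, were those of Runx2 (0.03, with -0.0169 to 0.0879 when a library was left out, -0.0232 without the outlying pair and -0.0277 in the added fit), Sp7 (0.17, with -0.16 to 0.61, -0.16 and -0.17), Alpl (0.69, with -0.0354 to 2.36, -0.0437 and -0.0497), Sox9 (-0.35, with -0.66 to 0.0571, 0.0510 and 0.0468) and Isg15 (0.56, with -0.11 to 1.92, -0.12 and -0.12). Ifnar1 (-0.02) was at 0.0047 by library size and at -0.0423 to 0.0154 with a library left out. Of 154 alternative values for single genes 131 kept direction and side of the threshold. The cause of these changes was not tested, except that leaving out a library leaves a lone one, given the spread of the remaining groups, and that the filter then keeps other genes. At this depth a gene with 0 counts over the 4 day 0 libraries may be present at up to 0.0218 CPM.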
